A study of Mus musculus with 12 samples.

Results

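Liver RNA of female KK mice was compared with liver RNA of male C57BL/6J mice, the diagonal of a design that crosses strain with sex. The members were the 3 arrays whose titles name liver of KK females and the 3 whose titles name liver of C57BL/6J males, 6 of the 12 arrays of the series. The groups differ in strain and in sex at once, and this comparison cannot tell those apart. The other 6 arrays, of KK males and C57BL/6J females, form the opposite diagonal, which shares no array with it and is used below as a reference. KK, written KK/HIJ or KK/J in the labels, is an inbred strain used as a model of obese, insulin-resistant diabetes, and C57BL/6J is the reference strain of mouse genetics. All mice ate chow, were 8 weeks old, had been housed singly for 3 days and had fasted for 4 hours. No drug, transgene or diet set the groups apart. The labels number 3 replicates per group without naming an animal for each, so the p-values measure the spread between these samples, which may be technical.

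The mouse liver is strongly sexually dimorphic. Males secrete growth hormone in pulses and females almost continuously, and hepatocytes read this pattern through the growth hormone receptor, JAK2 and STAT5b. BCL6, a repressor abundant in male liver, restrains female-biased genes, while CUX2, a repressor abundant in female liver, restrains male-biased ones. Cytochrome P450, sulfotransferase, major urinary protein and carrier genes are the classic outputs. In a diagonal comparison, a strain difference and a sex difference of opposite sign cancel, and those of the same sign add.

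Values are log2 expression, 1 per probe set and array, and a difference of 1 is a factor of 2. Values of a group are given in the order of its replicates 1, 2 and 3, and differences as KK females minus C57BL/6J males with the SE of a limma fit over all 12 arrays. A probe set was called when its Benjamini-Hochberg adjusted p over all 21212 probe sets lay under 0.05. A gene was taken to reach the same level when the 95% confidence interval of its difference lay wholly within a fold of 1.5 either way (0.58 on the log2 scale) and both group means lay above background. Background was set at 4.66, the highest value that Eif2s3y, Uty or Kdm5d, which are Y-linked, showed on a female array; the lowest was 3.79. Only autosomal genes were described, 18104 probe sets of 18102 genes.

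The labels were borne out by the sex chromosomes. Xist, the RNA that silences an X chromosome in females, lay at 10.95, 10.76 and 10.39 in KK females and at 4.29, 4.70 and 4.36 in C57BL/6J males. The Y-linked genes differed by -4.15 (Eif2s3y), -3.47 (Uty) and -1.71 (Kdm5d). Pearson correlations across probe sets ran from 0.992 to 0.996 within groups and from 0.975 to 0.993 between them. Of 7 hepatocyte markers 6 were within the margin, among them Alb (a difference of 0.04) and Ttr (0.07), and Apoa1 was lower (-0.53). T cell, B cell, erythroid, neutrophil and adipose markers stayed near background, and their mean levels on the 6 arrays ran from 4.54 to 4.95.

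KK female 3 stood apart from the other KK females, and results that rest on it are given with and without it. Its mean over 21 female-biased genes was 6.22, against 7.32 and 6.95 in KK females 1 and 2 and 5.80 to 6.02 in C57BL/6J males. Its mean over 22 male-biased genes was 10.14, against 9.70 and 9.62, with C57BL/6J males at 10.44 to 10.82. Over 24 acute phase genes it lay at 11.02, against 10.53 and 10.41, with C57BL/6J males at 9.95 to 10.13. KK female 3 was thus nearest to the males on both sex-biased lists and highest on the acute phase list. The serum amyloid gene Saa1 read 7.04, 6.52 and 9.96 in the KK females, and Saa2 read 8.79, 7.96 and 11.58.

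**Figure D1:**
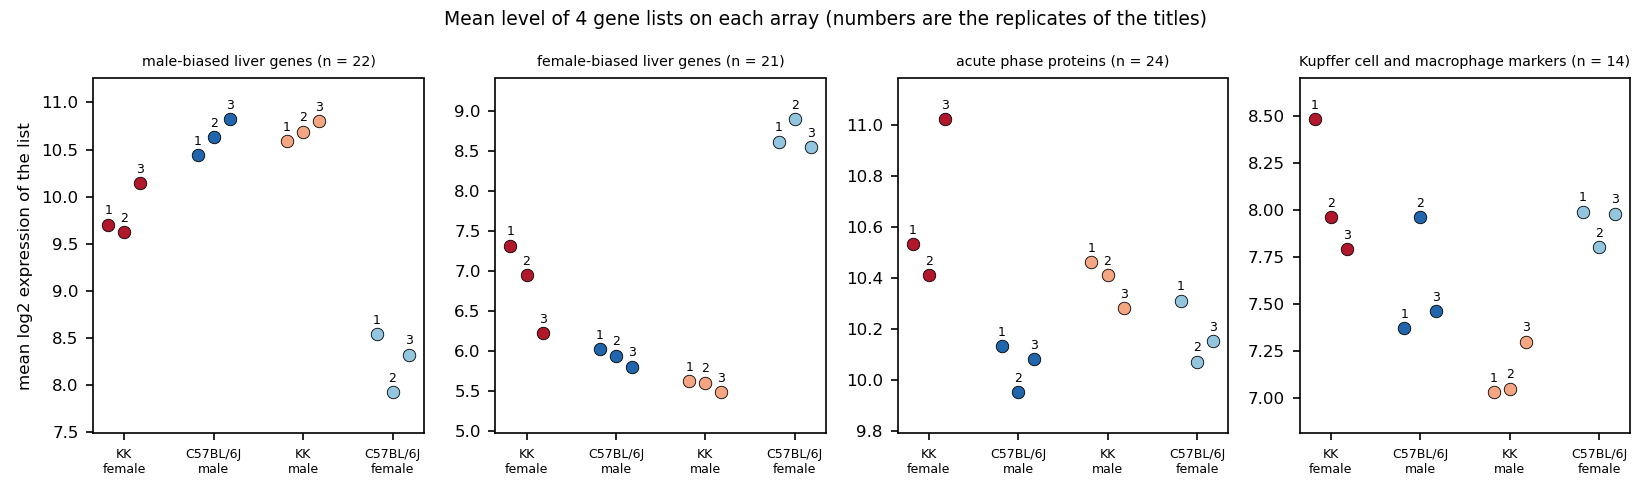
Mean log2 expression of the male-biased, female-biased, acute phase and Kupffer cell lists on each of the 12 arrays, with 1 point per array and its replicate number. KK females lie between the C57BL/6J sexes on the sex-biased lists, and KK female 3 has the lowest female-biased mean (6.22) and the highest acute phase mean (11.02) among them.

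Most autosomal genes were at like levels. Of 13720 probe sets above background in both groups, 11853 (86.4%) lay within the 1.5-fold margin. Of these 341 were called all the same, with small differences, and 907 further probe sets were neither called nor within the margin. Limma called 1348 of 18104 (7.45%), 754 higher (4.16%) and 594 lower (3.28%) in KK females. At least 2-fold differences were fewer, 188 in all (1.04%), 104 higher and 84 lower. The values of the 3 and 3 arrays did not overlap for 4239 probe sets (23.4%), and for 1342 of the 1348 calls. Without KK female 1 the call count was 835, and without KK female 3 it was 1285, of which 1083 were shared with the full set.

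The opposite diagonal, KK males minus C57BL/6J females, gave 1903 calls (10.5%), 731 higher (4.04%) and 1172 lower (6.47%) in KK males. The diagonals shared 641 calls, 47.6% of those between KK females and C57BL/6J males and 33.7% of the others. A gene that differs with strain alone has the same sign in both diagonals, and a gene that differs with sex alone has opposite signs. The signs were the same for 544 (3.00% of all tested), 224 higher and 320 lower in KK, and opposite for 97 (0.536%). The count of 97 was 59 without KK female 1, 59 without KK male 1 and 61 without C57BL/6J male 3. Of the probe sets within the margin here, 1117 were called in the opposite diagonal, 38 of them at least 2-fold; 1008 of the 1117 were not called here, and 109 were also called here and so are among the 641. Across autosomal probe sets, which are not independent replicates, Pearson's r between the 2 diagonals was 0.26.

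**Figure D2:**
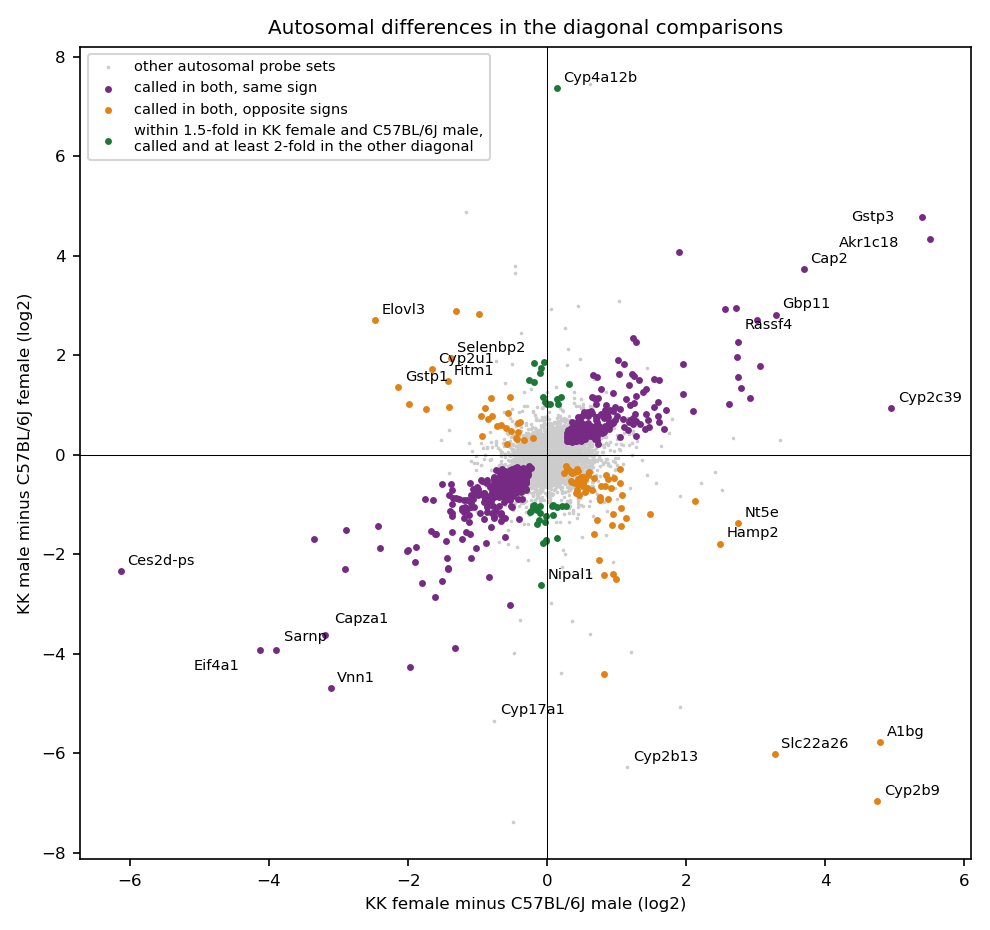
Difference of KK females minus C57BL/6J males (x axis, log2) against KK males minus C57BL/6J females (y axis, log2) for every autosomal probe set. Purple points are called in both with the same sign (544), orange points with opposite signs (97), and green points lie within the 1.5-fold margin on the x axis but are called at 2-fold or more on the y axis (38).

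Genes that reached the same level in KK females and C57BL/6J males were taken first, those with the largest opposite difference leading. Cyp4a12b, an arachidonic acid omega-hydroxylase gene known for its near absence from female liver, read 12.04, 11.79 and 12.20 in KK females and 11.63, 11.88 and 12.11 in C57BL/6J males. It read 12.19 to 12.43 in KK males and 4.51 to 5.28 in C57BL/6J females. The first 2 groups overlapped, and only C57BL/6J females were low. The difference was 0.14 (SE 0.18, interval -0.26 to 0.53, adjusted p = 0.798), against 7.37 (SE 0.18, adjusted p = 1.56e-10) in the opposite diagonal. Its neighbour Cyp4a12a read 12.22, 12.16 and 12.38 in KK females and 11.24, 11.72 and 11.94 in C57BL/6J males, with no overlap. The difference of 0.62 (SE 0.21, adjusted p = 0.121) was neither within the margin nor called. Without C57BL/6J female 1 its adjusted p was 0.0288, within a range of 0.0288 to 0.392 over all alternatives. The probes may read either of these near-identical genes.

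C9, the terminal component of the complement attack complex, read 11.16, 11.09 and 11.55 in KK females and 11.22, 11.36 and 11.48 in C57BL/6J males. KK males lay higher, at 11.81 to 11.91, and C57BL/6J females lower, at 9.65 to 10.53. The KK female and C57BL/6J male values overlapped (difference -0.09, SE 0.18), while the opposite difference was 1.73 (adjusted p = 7.97e-05). Slc35e3, a member of the nucleotide sugar transporter family, had differences of -0.05 here and 1.87 in the opposite diagonal. Nudt7, a peroxisomal hydrolase of coenzyme A, gave -0.19 and 1.45, and the aldehyde oxidase gene Aox1 -0.06 and 1.16. Dpy19l3, a protein C-mannosyltransferase gene (-0.10 and 1.64), Mcm10, a DNA replication gene (-0.26 and 1.49), Sdr9c7, a short-chain dehydrogenase gene (-0.19 and 1.85), and Fmo5, a flavin monooxygenase gene (0.20 and 1.16), were within the margin too. The values of Mcm10 and Sdr9c7 did not overlap between KK females and C57BL/6J males, KK females being lower, but the differences were not called. Tpmt, which methylates thiopurines, gave 0.32 and 1.42, and at an adjusted p of 0.0592 it was close to a call, with 0.0109 to 0.216 over the alternatives. Its values did not overlap either, with KK females higher (10.57, 10.42 and 10.68 against 10.27, 10.07 and 10.37). In all 15 of the 38 were higher in KK males than in C57BL/6J females.

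The other 23 were lower in KK males than in C57BL/6J females. Hpgd, which inactivates prostaglandins, read 10.96, 10.74 and 10.72 in KK females, 10.88, 10.94 and 10.66 in C57BL/6J males, 9.48 to 9.60 in KK males and 11.19 to 11.29 in C57BL/6J females. The first 2 groups overlapped and lay between the other two. The difference was -0.02 (SE 0.09), and the opposite difference was -1.71 (SE 0.09, adjusted p = 1.89e-07). Cd36, the fatty acid translocase, read 9.72, 9.41 and 9.24 against 9.63, 9.03 and 9.30 (difference 0.14, SE 0.17), with 8.36 to 8.87 in KK males and 10.15 to 10.38 in C57BL/6J females (-1.68, adjusted p = 4.82e-05). Nipal1, a magnesium transporter gene, gave -0.09 against -2.63.

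The other named genes of these 23 had opposite differences between -1.78 and -1.22. Papss2, which makes the sulfate donor of sulfotransferases, differed by -0.12 and by -1.31 in the opposite diagonal, and the phenol sulfotransferase gene Sult1a1 by 0.08 and -1.22. Ly86, a partner of a B cell and macrophage surface receptor, gave -0.02 and -1.73, and Laptm5, a lysosomal protein gene of blood cells, -0.02 and -1.24. Samd9l, an interferon-inducible gene, gave -0.06 and -1.78, the phosphate and urate carrier gene Slc17a1 -0.03 and -1.36, and the ribosomal RNA processing gene Utp14b -0.15 and -1.39. Kupffer cell markers did not follow Ly86 and Laptm5 between KK females and C57BL/6J males, where their median difference was 0.47, but were also lower in KK males than in C57BL/6J females: their mean was 7.79 to 8.48 in KK females, 7.37 to 7.96 in C57BL/6J males, 7.03 to 7.30 in KK males and 7.80 to 7.99 in C57BL/6J females, and their part in these values was not tested. In bulk liver, fewer cells of a type and less RNA per cell cannot be told apart.

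**Figure D3:**
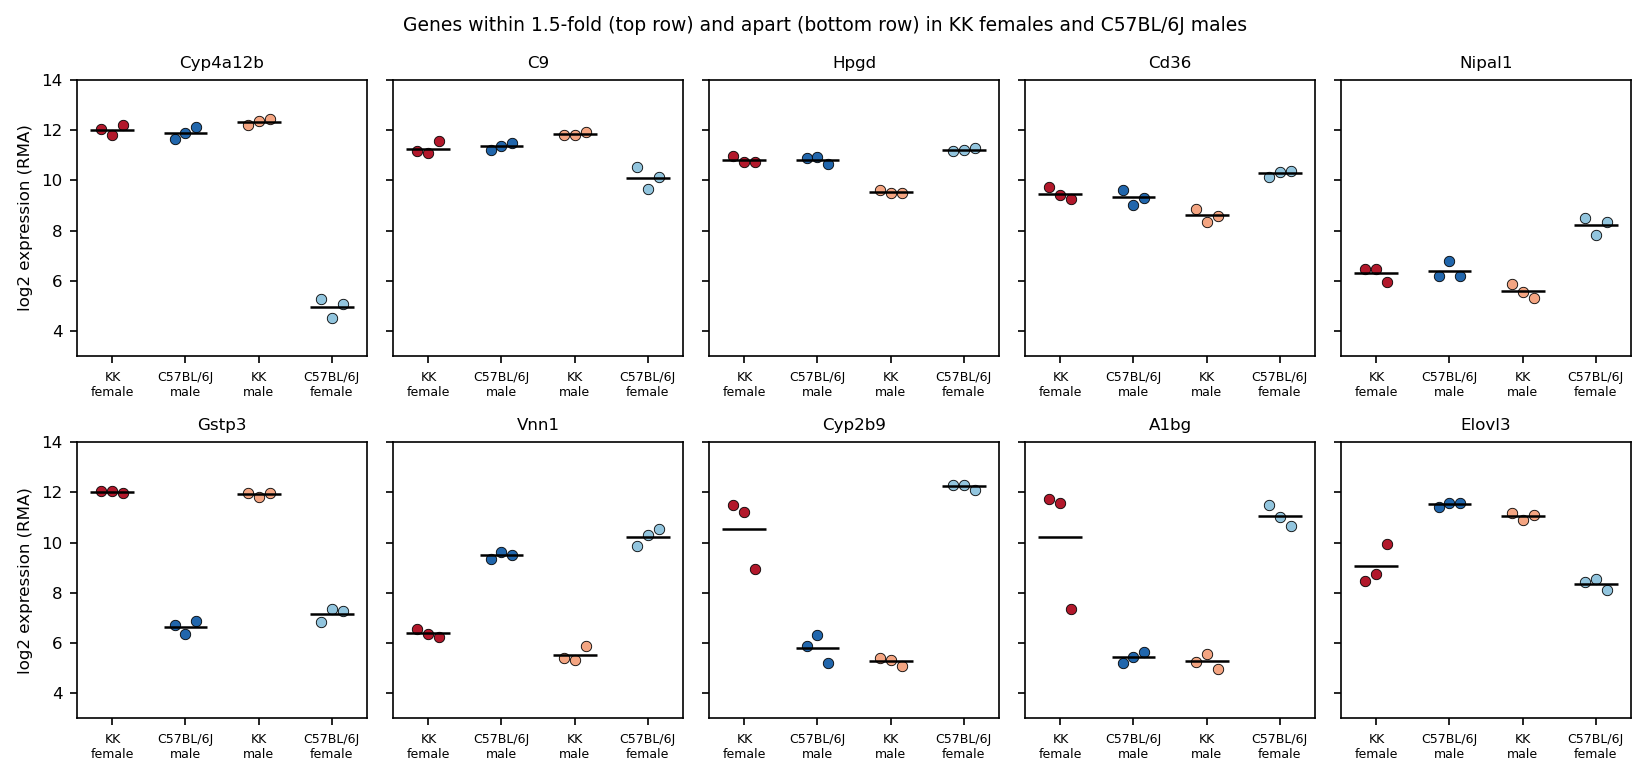
Log2 expression on each of the 12 arrays (points; bars are group means) of 5 genes within 1.5-fold in KK females and C57BL/6J males (top) and 5 genes apart (bottom). In the top row the first 2 groups overlap while KK males and C57BL/6J females are apart; A1bg and Cyp2b9 show the low values of KK female 3 (7.35 and 8.95).

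Male-biased genes of KK females ranged from the level of C57BL/6J males, as for Cyp4a12b, to that of C57BL/6J females. Of 24 listed genes 22 were measured on autosomes; 4 were within the margin, 10 were lower in KK females, 0 were higher by limma (1 at an unadjusted p under 0.05) and the median difference was -0.64, against -0.02 over all autosomal probe sets. Over all autosomal probe sets 3.28% were lower and 4.16% higher, and 86.4% of those above background lay within the margin. In the opposite diagonal 21 of the 22 were higher in KK males, against 4.04% of all, with a median of 1.83. KK females were higher than C57BL/6J females for 11 of the 22 and C57BL/6J males for 17; these comparisons share arrays and are given side by side only. Without KK female 2 the number within the margin was 2, and without C57BL/6J female 1 the number higher was 1.

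The 4 within the margin were Cyp4a12b, the glucuronosyltransferase genes Ugt2b1 (-0.01) and Ugt2b38 (0.04), and the growth factor receptor gene Egfr (-0.17). Only Cyp4a12b of these was called between the C57BL/6J sexes (male minus female 6.91); Ugt2b1 (0.70, adjusted p = 0.0567), Egfr (0.66, adjusted p = 0.131) and Ugt2b38 (0.60, adjusted p = 0.202) were not, so their male and female levels are little separated. C6, another complement gene of the attack complex, read 10.09, 9.84 and 10.60 in KK females and 10.31, 10.64 and 10.99 in C57BL/6J males, while C57BL/6J females read 7.24 to 7.93. Its groups overlapped, but the interval of -0.97 to 0.03 left it outside the margin. The bile acid and steroid carrier gene Slco1a1 (0.30), the pheromone-binding urinary protein gene Mup20 (-0.38) and the iron uptake receptor gene Scara5 (0.12) were likewise neither called nor within it. Mup3 differed by -0.45 (adjusted p = 0.0525), which ranged from 0.0106 to 0.157 over the alternatives. Hsd3b5, a steroid dehydrogenase gene, read 9.07, 8.93 and 9.64 against 10.10, 10.50 and 10.55 with no overlap, but the difference of -1.17 was not called (adjusted p = 0.111; 0.0151 to 0.280). Mup genes are a family of near-identical copies, and their values are uncertain as to the gene. Moxd1, a monooxygenase gene, was near background in both groups.

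The 10 male-biased genes that were lower lay between the C57BL/6J sexes or at the female level. Elovl3, an elongase of very long chain fatty acids, read 8.48, 8.76 and 9.93 in KK females, 11.43, 11.57 and 11.58 in C57BL/6J males and 8.10 to 8.54 in C57BL/6J females. All KK females were below all C57BL/6J males, KK female 3 least so. The difference was -2.47 (SE 0.28, adjusted p = 0.000179), and -2.91 without KK female 3. Gstp1, a glutathione transferase gene, read 11.08, 11.31 and 11.34 against 13.23, 13.53 and 13.41 (-2.14, SE 0.11, adjusted p = 2.76e-07), with 11.16 to 11.55 in C57BL/6J females. The fatty acid hydroxylase gene Cyp2u1 read 6.65, 6.49 and 6.89 against 8.17, 8.24 and 8.60 (-1.66, adjusted p = 7.39e-06), with 6.52 to 6.73 in C57BL/6J females. KK females thus overlapped C57BL/6J females for Elovl3, Gstp1 and Cyp2u1. The probes of Gstp1 may also read its paralogs.

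Bcl6, the repressor of female-biased genes, read 7.27, 7.32 and 7.56 in KK females and 9.03, 8.95 and 9.39 in C57BL/6J males. Its difference was -1.74 (SE 0.21, adjusted p = 0.000335). KK males read 7.27, 7.85 and 6.92, so that both KK sexes lay below every C57BL/6J male and above every C57BL/6J female (6.24 to 6.76). Mup21 (-1.99), the complement regulator gene Susd4 (-1.41), the selenium-binding protein gene Selenbp2 (-1.39) and the steroid hydroxylase gene Cyp2d9 (-1.31) were lower in KK females as well. Cyp2d9 read 11.41, 11.22 and 11.98 against 12.79, 12.85 and 12.91, with 9.17 to 10.33 in C57BL/6J females, and so lay nearer to the males (1.63 above C57BL/6J females, adjusted p = 0.00233). Cyp7b1, an oxysterol hydroxylase gene (-0.98, adjusted p = 0.0482), and Nox4, an NADPH oxidase gene (-0.81, adjusted p = 0.0468), were close to the threshold. Their adjusted p ranged from 0.0106 to 0.170 and from 0.00178 to 0.149 over the alternatives, and each lost the call when most of the single arrays were left out. Cyp7b1 was 1.66 above C57BL/6J females (adjusted p = 0.00266), again nearer to the males, and Bcl6 was 0.95 above them (adjusted p = 0.0191).

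**Figure D4:**
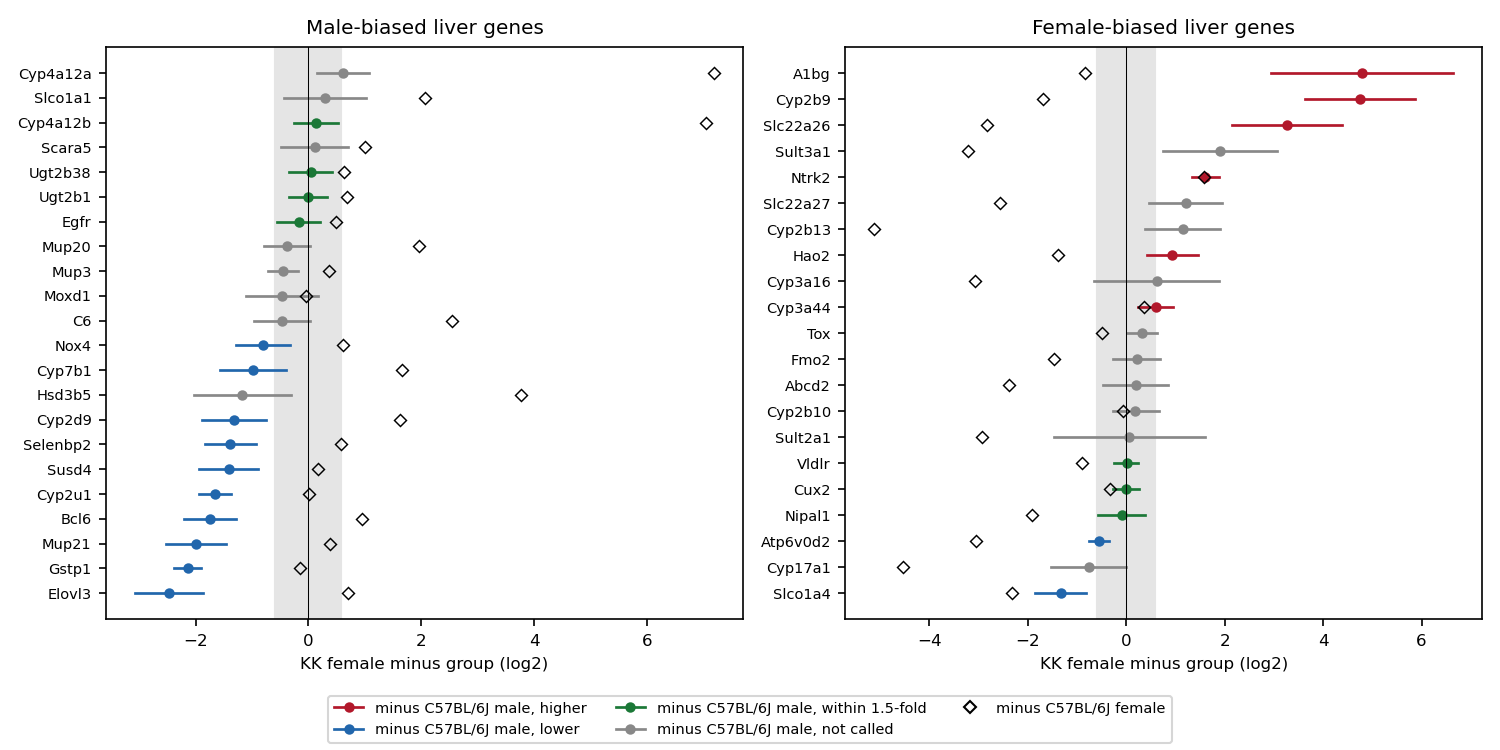
Differences of KK females minus C57BL/6J males (filled points with 95% confidence intervals) and minus C57BL/6J females (open diamonds), in log2, for the measured male-biased (left) and female-biased (right) genes. The grey band is the 1.5-fold margin. Of the male-biased genes 10 are called lower and 4 lie within the band; A1bg, Cyp2b9 and Slc22a26 have the largest positive differences among the female-biased.

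Female-biased genes of KK females ranged from background, as for Sult2a1, to clear expression, as for Cyp2b9, with others in between. Of 29 listed genes 21 were measured on autosomes; 6 were higher and 2 lower in KK females, 3 were within the margin, and the median difference was 0.33. In 8 of the 21 a group mean lay under the background level. The shares over all autosomal probe sets were 4.16% higher and 3.28% lower, with 86.4% of those above background within the margin. In the opposite diagonal 17 of the 21 were lower in KK males, against 6.47% of all, and the median was -3.03. KK females were lower than C57BL/6J females for 14 of the 21 and C57BL/6J males for 15, side by side. The listed genes not called between the C57BL/6J sexes were Ntrk2, Cyp3a44, Cyp2b10, Cux2, Slco1a4 and Sult2a1. Their male minus female differences were -0.04, -0.24, -0.26, -0.33, -0.99 and -2.98, in this order. For the first 4 of these the male and female levels are little separated. The count of 6 was 8 without KK female 3 and 4 without KK female 1, KK male 1 or any 1 of the C57BL/6J males.

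Cyp2b9 and Cyp2b13 are neighbouring cytochrome P450 genes of female liver whose upstream sequences are nearly the same. Their 250 bases before the start, from RefSeq on GRCm38.p6, the genome of C57BL/6J, lie at chr7:26173159-26173408 and chr7:26061245-26061494 on the plus strand. They are shown because 248 of 250 bases (99.2%) are the same; capitals mark the 2 that differ, T48C and C104T, with the base of Cyp2b9 first and positions counted from 1 at the 5′ end.
Cyp2b9: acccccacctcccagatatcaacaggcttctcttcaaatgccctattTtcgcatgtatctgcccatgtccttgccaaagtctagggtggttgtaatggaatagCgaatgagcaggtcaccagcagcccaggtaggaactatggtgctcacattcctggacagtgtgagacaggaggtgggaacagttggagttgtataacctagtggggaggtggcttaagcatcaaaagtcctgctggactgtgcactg
Cyp2b13: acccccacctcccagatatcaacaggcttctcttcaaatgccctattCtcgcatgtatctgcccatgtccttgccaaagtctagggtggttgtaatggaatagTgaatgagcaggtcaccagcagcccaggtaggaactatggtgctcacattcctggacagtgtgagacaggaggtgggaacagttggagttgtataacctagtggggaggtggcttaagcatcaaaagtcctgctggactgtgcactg
The sequence of KK was not used here.

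Cyp2b9 read 11.49, 11.22 and 8.95 in KK females, 5.89, 6.33 and 5.19 in C57BL/6J males and 12.11 to 12.31 in C57BL/6J females. Every KK female was above every C57BL/6J male and below every C57BL/6J female. The difference was 4.75 (SE 0.51, adjusted p = 0.00012), and 5.55 (SE 0.25) without KK female 3. Cyp2b13 read 5.59, 5.35 and 3.71, against 3.75, 3.82 and 3.64 in C57BL/6J males and 9.93 to 10.09 in C57BL/6J females. KK female 3 was at the level of the males, and the other KK females were far below C57BL/6J females. Its difference of 1.15 was not called (SE 0.35, adjusted p = 0.0747) but was 1.73 (adjusted p = 9.86e-07) without KK female 3, in a range of 9.86e-07 to 0.283 over the alternatives. Probes of such close paralogs can read either gene.

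A1bg, a plasma glycoprotein gene, and Slc22a26, an organic anion carrier gene, were the other female-biased genes with a large difference. Their 250 upstream bases are shown because each holds TTCNNNGAA, the core of the STAT5 motif, which reads the same on both strands. Capitals mark the match, which begins 84 bases before the start of A1bg (chr15:60921271-60921520, minus strand) and 141 before that of Slc22a26 (chr19:7802668-7802917, minus strand).
A1bg: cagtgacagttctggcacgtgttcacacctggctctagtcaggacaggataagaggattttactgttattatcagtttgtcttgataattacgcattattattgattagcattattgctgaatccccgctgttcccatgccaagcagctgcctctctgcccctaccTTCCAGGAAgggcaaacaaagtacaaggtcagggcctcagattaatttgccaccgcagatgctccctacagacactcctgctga
Slc22a26: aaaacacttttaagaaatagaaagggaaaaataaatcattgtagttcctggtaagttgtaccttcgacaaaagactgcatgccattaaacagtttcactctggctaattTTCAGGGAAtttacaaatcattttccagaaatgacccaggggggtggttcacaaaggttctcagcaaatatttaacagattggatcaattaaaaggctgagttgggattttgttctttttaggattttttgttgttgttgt
The same letters stood in 2306 of 32851 such promoters (7.02%), in a promoter of 2197 of 27025 genes (8.13%), in those of 3 of 16 female-biased genes found in the table (Sult3a1, A1bg and Slc22a26) and in those of 3 of 15 male-biased genes (Moxd1, Nox4 and Bcl6). A match describes these letters in the C57BL/6J sequence and is not a binding site.

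A1bg read 11.72, 11.58 and 7.35 in KK females, 5.21, 5.43 and 5.65 in C57BL/6J males and 10.65 to 11.48 in C57BL/6J females. KK females 1 and 2 lay above every C57BL/6J female, and KK female 3 lay between the sexes. The difference was 4.79 (SE 0.85, adjusted p = 0.0046), and 6.22 (SE 0.23) without KK female 3. Slc22a26 read 9.17, 8.23 and 6.23 against 4.65, 4.56 and 4.61, which is background, with 10.45 to 10.94 in C57BL/6J females. Its difference was 3.27 (SE 0.51, adjusted p = 0.00201) and 4.09 without KK female 3. The sulfotransferase gene Sult3a1 read 6.79, 5.65 and 3.67 against 3.42 to 3.49, and the carrier gene Slc22a27 read 6.31, 5.31 and 4.47 against 4.08 to 4.26. C57BL/6J males were at background for both genes and for Cyp2b13. Sult3a1 and Slc22a27 were uncalled with KK female 3 (adjusted p = 0.0517 and 0.0521) and called without it (5.3e-05 and 0.00259; over all alternatives 5.3e-05 to 0.171 and 0.00259 to 0.141).

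Smaller differences were seen for the hydroxyacid oxidase gene Hao2 (0.94, adjusted p = 0.0345; 0.00119 to 0.114 over the alternatives) and Cyp3a44 (0.60, adjusted p = 0.0453; 0.0185 to 0.184). Hao2 was at background in C57BL/6J males and lost the call without KK female 1, KK female 2, KK male 1 or any 1 of the C57BL/6J males, and Cyp3a44 lost it without any 1 array other than KK female 2 or KK male 3. Ntrk2, a neurotrophin receptor gene, was 1.61 higher than in C57BL/6J males and 1.58 higher than in C57BL/6J females, whose sexes differed by -0.04. Abcd2, a peroxisomal importer of fatty acyl-CoA, read 8.02, 7.37 and 6.75 against 6.90, 7.69 and 6.96 and overlapped fully, while C57BL/6J females read 9.44 to 9.93. Cyp17a1, a steroid hydroxylase gene, read 6.55, 6.41 and 6.03 against 7.99, 6.50 and 6.77, far below the 10.48 to 11.55 of C57BL/6J females. Vldlr, a lipoprotein receptor gene (0.01), Nipal1 (-0.09) and Cux2 (0.00) were within the margin. The carrier gene Slco1a4 (-1.33) and the proton pump subunit gene Atp6v0d2 (-0.54) were lower in KK females than in C57BL/6J males, Atp6v0d2 being at background in KK females. Cyp3a16 (0.62), the sulfotransferase gene Sult2a1 (0.06), Tox (0.33), the flavin monooxygenase gene Fmo2 (0.22) and Cyp2b10 (0.19) were not called; Cyp3a16 was at background in C57BL/6J males and Sult2a1 in both groups. The Cyp3a16 values of the groups did not overlap, and its adjusted p was 0.0111 to 0.86 over the alternatives. It was called with only the groups compared or without C57BL/6J female 3.

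The growth hormone and IGF axis had 10 of 18 members within the margin, 4 higher and 1 lower (median 0.17). Among these calls 1 lay within the margin too. Over all autosomal probe sets 4.16% were higher and 3.28% lower, and 86.4% of those above background were within the margin. The receptor gene Ghr (-0.10), Jak2 (0.07) and Stat5b (0.10) were within it, named after their values were seen. Esr1, the estrogen receptor, read 8.77, 8.83 and 8.66 in KK females, 7.23, 7.53 and 7.07 in C57BL/6J males, 7.21 to 7.62 in KK males and 8.60 to 8.62 in C57BL/6J females. Females of both strains were above all males, with differences of 1.48 (SE 0.12, adjusted p = 1.09e-05) here and -1.19 (adjusted p = 4.82e-05) in the opposite diagonal. Igf1 was higher by 0.52 (SE 0.08, adjusted p = 0.00264), the IGF carrier gene Igfbp3 by 1.75 (adjusted p = 7.55e-05), and Igfbp4 by 0.26. Igfbp2, another IGF-binding protein, read 8.45, 8.63 and 8.87 against 10.56, 11.38 and 11.22, with a difference of -2.40 (SE 0.22, adjusted p = 2.73e-05) here and -1.88 in the opposite diagonal.

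Many of the largest differences had the same sign in both diagonals. Gstp3, a glutathione transferase gene, read 12.05, 12.06 and 11.99 in KK females and 6.71, 6.35 and 6.88 in C57BL/6J males. Its difference was 5.39 (SE 0.14, 41.9-fold, adjusted p = 3.38e-10), with 4.77 in the opposite diagonal. Akr1c18, which inactivates progesterone, read 10.55, 10.31 and 10.72 against 5.13, 5.08 and 4.82 (5.51, SE 0.16, 45.7-fold), with 4.33. All KK arrays, of either sex, lay above all C57BL/6J arrays for both genes. The actin regulator gene Cap2 (3.69 and 3.72), the guanylate-binding protein gene Gbp11 (3.29 and 2.81) and Rassf4, a Ras association domain gene (2.72 and 2.94), were higher in both as well. Gdpd3, a phospholipase gene (3.02 and 2.71), and the cholesterol 24-hydroxylase gene Cyp46a1 (3.06 and 1.78) were also higher in KK in both. Gdpd3 lay at background in both C57BL/6J sexes, so its differences are from the background level.

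Other large differences had a smaller value in the opposite diagonal; the difference between the diagonals was not tested. Cyp2c39, an arachidonic acid and retinoic acid hydroxylase gene, read 12.41, 11.83 and 11.92 in KK females, 7.42, 7.18 and 6.73 in C57BL/6J males, 9.02 to 9.46 in KK males and 8.16 to 8.34 in C57BL/6J females. The 4 groups did not overlap, KK females being highest and C57BL/6J males lowest. The difference was 4.95 (SE 0.18, 30.8-fold, adjusted p = 1.05e-08), against 0.94 (adjusted p = 0.00614). Mfsd2a, a carrier of lysophosphatidylcholine, read 10.64, 10.61 and 10.62 against 8.57, 6.28 and 6.96 (3.35, SE 0.45, adjusted p = 0.000662), and differed by 0.30 (adjusted p = 0.754) in the opposite diagonal. Lrtm1, a leucine-rich repeat membrane protein gene, gave 2.91 and 1.14.

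Among the lower genes, Vnn1, the pantetheinase and a PPARalpha target, read 6.56, 6.35 and 6.24 in KK females against 9.34, 9.63 and 9.50 in C57BL/6J males. Its difference was -3.11 (SE 0.17, adjusted p = 4.34e-07), and -4.69 in the opposite diagonal. The carboxylesterase pseudogene Ces2d-ps read 3.84, 4.77 and 5.49 against 10.54, 10.71 and 11.23 (-6.13, SE 0.37, adjusted p = 9e-07; opposite -2.34), and Ces2a, its relative that hydrolyses drugs and lipids, differed by -2.44 and -1.44. The antitrypsin gene Serpina1d (-3.35 and -1.70), the aldo-keto reductase gene Akr1c12 (-2.91 and -2.30) and the glycosyltransferase gene Glt1d1 (-2.89 and -1.51) were lower in both too. Eif4a1, a translation initiation helicase (-4.13 and -3.92), Sarnp, an mRNA export factor (-3.90 and -3.92), and Capza1, an actin capping subunit (-3.19 and -3.63), have general cellular roles. Eif4a1 read 5.22, 4.24 and 4.62 in KK females and Sarnp 3.90, 3.69 and 4.70, at or near background. Values of the Gstp, Akr1c, Ces2, Serpina1, Gbp and Cyp2c families are uncertain as to the gene, since paralogs share sequence. Single probes were not used here, so the part of sequence differences between the strains under the probes was not tested.

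Of the 97 genes with opposite signs, 67 were higher in KK females than in C57BL/6J males and lower in KK males than in C57BL/6J females. Beside A1bg, Cyp2b9 and Slc22a26, the rule named Hamp2 and Nt5e. Nt5e, the ectonucleotidase that makes adenosine from AMP, read 9.58, 9.38 and 9.22 in KK females and 6.84, 6.56 and 6.53 in C57BL/6J males, with a difference of 2.75 (SE 0.12, adjusted p = 3.85e-08). KK males read 7.37 to 7.67 and C57BL/6J females 8.82 to 9.02, a difference of -1.38 (adjusted p = 1.07e-05). Females of either strain thus lay above males of either strain. Hamp2, a hepcidin gene, read 10.41, 10.52 and 9.67 against 8.20, 7.51 and 7.41 (2.49, SE 0.32, adjusted p = 0.000442), with -1.79 in the opposite diagonal.

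The other 30 were lower in KK females and higher in KK males. Fitm1, which partitions triglyceride into lipid droplets, read 8.14, 8.36 and 8.61 in KK females, 9.90, 9.53 and 9.96 in C57BL/6J males, 9.78 to 9.96 in KK males and 8.30 to 8.53 in C57BL/6J females. The females of the strains overlapped, as did the males, and no female reached a male. The differences were -1.43 (SE 0.13, adjusted p = 3.22e-05) and 1.48. The rule also named Elovl3, Cyp2u1, Selenbp2 and Gstp1 here, which are described above.

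Metabolic and stress lists were read against shares of 4.16% higher and 3.28% lower over all autosomal probe sets and a median of -0.02. The share within the margin to set beside them was 86.4% of the probe sets above background in both groups. For the opposite diagonal the shares were 4.04% higher and 6.47% lower. Of 26 lipid synthesis genes, for fatty acids and triglyceride, 17 were within the margin, 5 were higher and 1 was lower (median 0.09). Acacb, whose malonyl-CoA restrains fatty acid oxidation, read 9.49, 9.64 and 9.60 against 8.08, 8.48 and 8.45 (1.24, SE 0.11, adjusted p = 1.99e-05), with no overlap. The polyunsaturated fatty acid genes Elovl5 (1.09) and Fads1 (0.73), the lipogenic regulator gene Thrsp (1.22) and the fatty acid synthase gene Fasn (0.78) were higher. In the opposite diagonal Thrsp was higher in KK males as well (1.62), while Fasn was lower (-0.64). Lpin1, a phosphatidate phosphatase gene, was lower (-1.37); it was not called without KK female 1, KK female 3, C57BL/6J male 1 or C57BL/6J male 3. Fasn and Lpin1 were named after their values were seen.

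Cholesterol synthesis had 16 of 24 genes measured, 6 within the margin, 3 lower and 2 higher, 1 of the calls being in the margin too. The median was -0.20, and the opposite median was -0.58, with 8 lower. The sterol desaturase gene Sc5d read 10.91, 10.67 and 10.86 against 11.75, 11.83 and 11.76 (-0.97, SE 0.10, adjusted p = 6.2e-05) and differed by -1.17 in the opposite diagonal. The isoprenoid gene Ggps1 (-0.74) and the sterol reductase gene Tm7sf2 (-0.58; adjusted p 0.00124 to 0.063 over the alternatives, not called without C57BL/6J male 1) were lower and another sterol reductase gene, Dhcr7 (0.44), was higher in KK. Srebf2, the regulator of this pathway, was higher here (0.34) and lower in the opposite diagonal (-0.54), named after its value was seen. The 2 higher became 0 or 1 without any 1 of the 6 arrays compared, and the 3 lower became 6 at the most without C57BL/6J female 1 or 2. The number within the margin was 1 to 9, with changes over 1.5 times without KK female 3 or C57BL/6J male 3.

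Fatty acid oxidation and PPARalpha targets had 16 of 28 within the margin, 3 higher and 3 lower, 1 of the calls being in the margin too. The median was -0.03, and 0.00 after quantile or loess normalization, whereas 12 were lower in the opposite diagonal. Beside Vnn1, the acylcarnitine carrier gene Slc25a20 (-0.48) and the peroxisomal enzyme gene Ehhadh (-0.36) were lower. Pdk4, which switches off pyruvate oxidation (1.09), the thioesterase gene Acot2 (0.46) and the coactivator gene Ppargc1a (0.51) were higher, but these numbered 0 to 4 when arrays were left out, with KK females 1 and 2 and C57BL/6J males 1 and 3 moving the count by more than 1.5 times. The omega-hydroxylase gene Cyp4a14 read 11.25, 11.34 and 10.06 in KK females, 11.80, 11.94 and 10.40 in C57BL/6J males, 5.15 to 5.44 in KK males and 12.48 to 12.76 in C57BL/6J females. KK females overlapped C57BL/6J males (-0.49, SE 0.38), and KK males were far below every other group (-7.39 in the opposite diagonal). Its neighbour Cyp4a10 differed by -0.48 and -3.99. Ehhadh, Ppargc1a, Cyp4a14 and Cyp4a10 were named after their values were seen.

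PPARgamma targets and lipid droplet genes had 13 of 20 within the margin, among them Cd36 and Plin2 (0.04). Mogat1, a monoacylglycerol acyltransferase gene, was higher (1.02, adjusted p = 7.5e-05; opposite 1.91; both from C57BL/6J levels at background), and Fitm1 and the hormone-sensitive lipase gene Lipe (-0.45) were lower. Without KK female 3, KK male 2 or C57BL/6J female 2 the number higher was 2. The number lower was 1 to 3, with changes over 1.5 times without KK female 1, C57BL/6J male 1 or C57BL/6J male 3.

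Bile acid genes leaned lower. Of 26 genes 8 were lower, 1 was higher and 16 were within the margin, 3 of the calls being in this margin too (median -0.19), and the opposite diagonal also had 8 lower. The bile salt export pump gene Abcb11 read 11.57, 11.46 and 11.37 against 12.24, 12.28 and 12.17, with no overlap (-0.77, SE 0.07, adjusted p = 3.66e-05; opposite -1.24). Cyp39a1, an oxysterol hydroxylase gene, read 6.75, 6.66 and 6.19 against 8.97, 8.40 and 8.19 (-1.98, SE 0.19, adjusted p = 4.41e-05; opposite -4.27). The bile acid CoA ligase gene Slc27a5 (-0.53) was lower and Fgfr4, the receptor of the gut hormone that represses bile acid synthesis, was higher (0.80, adjusted p = 0.000136). Cyp7a1, the rate-limiting enzyme of bile acid synthesis, read 11.44, 11.23 and 10.28 against 10.88, 10.21 and 10.40 and overlapped (0.49, adjusted p = 0.56); it was named after its value was seen.

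Lipoprotein genes went both ways. Of 25 genes 6 were higher, 7 lower and 14 within the margin, 2 of the calls being in this margin too (median 0.07). Apoa4, an apolipoprotein of triglyceride-rich particles, read 12.46, 12.46 and 12.29 against 9.93, 9.33 and 9.75 (2.73, SE 0.13, adjusted p = 1.16e-07; opposite 1.97). The phospholipid transfer protein gene Pltp was higher (0.99), and Apoa1 (-0.53) and the sterol exporter gene Abcg8 (-0.82) were lower. The 6 higher became 2 at the fewest, moving by over 1.5 times without KK female 1, KK female 2, C57BL/6J male 1 or C57BL/6J male 2, and the 7 lower became 4 at the fewest, without KK female 2 or C57BL/6J male 3.

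Glutathione transferases and NRF2 targets had 15 of 24 within the margin, 3 higher and 1 lower. Beside Gstp3, Gstm2 (0.70; opposite 0.56) was higher and Gstt2 lower (-0.50; opposite -0.53). Nqo1, a quinone reductase, read 7.08, 6.84 and 6.81 in KK females, 6.46, 5.91 and 5.71 in C57BL/6J males, 5.95 to 6.17 in KK males and 6.82 to 7.18 in C57BL/6J females. Females of both strains lay above all males (0.88, adjusted p = 0.00638; opposite -0.90, adjusted p = 0.00409). Of 17 genes of the CAR, PXR and AHR axis, which senses drugs and pollutants, 10 were within the margin, 4 lower and 1 higher. Among these calls 2 lay within the margin too. The lower ones were Ces2a, the receptor gene Ahr (-0.51), Cyp3a25 (-0.39) and Cyp2c55 (-1.41, adjusted p = 0.029; 0.00165 to 0.115 over the alternatives). The higher one, Cyp2c29 (0.32), was not called without KK female 1, KK female 3 or any C57BL/6J male and was named after its value was seen.

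Acute phase proteins had 5 of 24 higher, 0 lower by limma (1 at an unadjusted p under 0.05) and 14 within the margin (median 0.18). Apcs, serum amyloid P, read 11.45, 11.26 and 11.56 against 8.53, 8.78 and 8.74 (2.74, SE 0.13, adjusted p = 1.16e-07; opposite 1.56). Lbp, which presents bacterial lipopolysaccharide, was higher by 1.10 (opposite 0.56). The orosomucoid gene Orm2 read 10.30, 10.36 and 11.44 against 8.19, 8.20 and 8.14 (2.52, SE 0.30; 2.15 without KK female 3), and Orm3 was higher by 2.12 (1.83 without KK female 3). Lcn2, a siderophore-binding protein named after its value was seen, read 9.53, 9.56 and 11.15 against 8.53, 6.59 and 7.09 (2.67, adjusted p = 0.00592). No KK female overlapped a C57BL/6J male for these 5, as was so for 1342 of all 1348 calls. Whatever the call, 23.4% of autosomal probe sets did not overlap. Orm and Saa genes have close paralogs. Without KK female 1 or KK female 3 the number lower was 1.

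Interferon response genes had 3 of 23 lower, 0 higher by limma (1 at an unadjusted p under 0.05; 1 called without KK female 3) and 11 within the margin (median -0.12), against 13 lower in the opposite diagonal (median -0.59). Bst2, which tethers virions, was lower by -0.78 (opposite -1.03), the antiviral enzyme gene Rsad2 by -0.75 (opposite -0.82) and the deISGylase gene Usp18 by -1.02 (adjusted p = 0.0246; 0.000819 to 0.0921 over the alternatives, and not called without any 1 of the KK females, C57BL/6J male 2 or C57BL/6J male 3; opposite -1.87). Of 25 respiratory chain genes 23 were within the margin, of which 5 were called all the same, among them Cox6c (-0.43), Sdhd (-0.31) and Sdhc (0.29). Sdhd lost the call after quantile normalization (adjusted p = 0.0539, the highest of a range from 0.00425). Ndufa9, a complex I subunit, was lower by -0.50 (opposite -0.41). In all 5 were lower, a count of 3 to 6 with an array left out that moved by over 1.5 times without KK female 1, KK female 2 or C57BL/6J male 3, and Sdhc was not called without KK female 2, C57BL/6J male 1 or C57BL/6J male 2.

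Glucose metabolism genes were within the margin for 12 of 20. The glycogen synthase gene Gys2 read 10.57, 10.33 and 10.77 against 11.36, 11.43 and 11.61, with no overlap (-0.91, SE 0.13, adjusted p = 0.000923), and differed by -0.09 in the opposite diagonal. Pklr, the liver pyruvate kinase (0.69), Pcx, pyruvate carboxylase (0.46), and Pik3r1, a regulatory subunit of PI3-kinase (0.46), were higher. Pik3r1 was not called without KK female 1, C57BL/6J male 1 or C57BL/6J male 2, with an adjusted p of 0.00812 to 0.121 over the alternatives. Of 18 genes of the urea cycle and amino acid catabolism 13 were within the margin. Etnppl (0.58) and Agxt, which detoxifies glyoxylate (0.45), were higher, and the argininosuccinate lyase gene Asl was lower (-0.49; not called without KK female 1, KK female 2 or C57BL/6J male 1). Agxt was lower in KK males than in C57BL/6J females (-0.62).

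**Figure D5:**
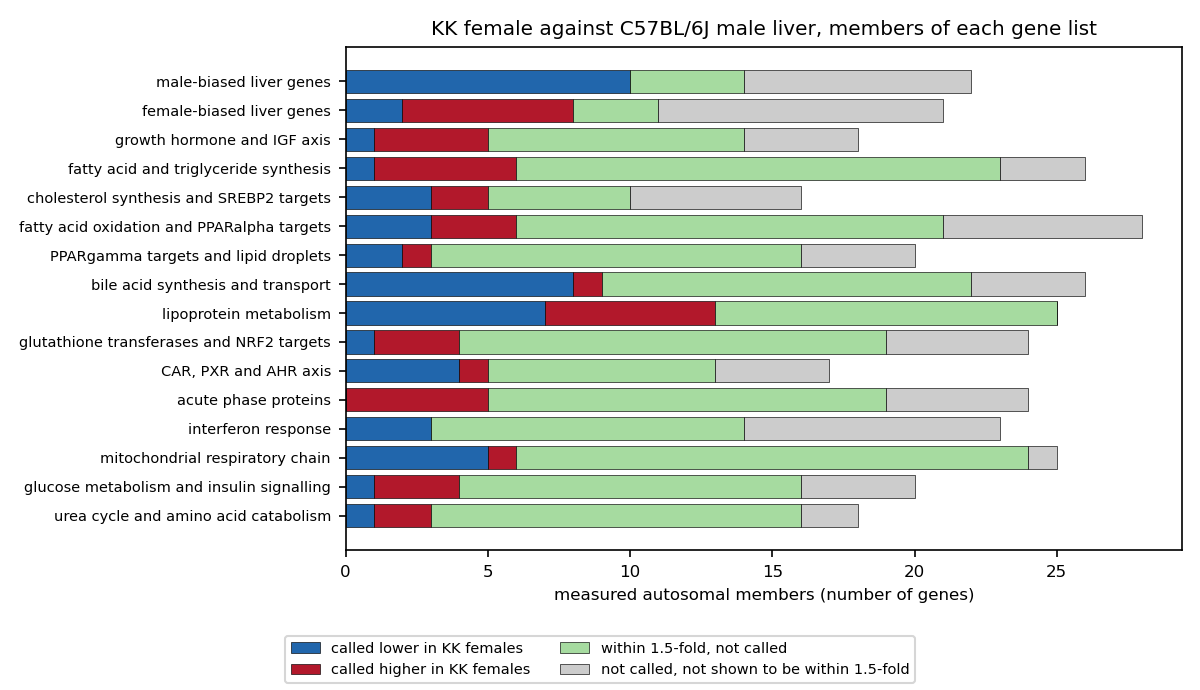
Number of measured autosomal members of each gene list that were called lower or higher in KK females than in C57BL/6J males, that lay within the 1.5-fold margin without a call, or that were neither. Bars are stacked; male-biased genes have 10 lower and bile acid genes 8 lower, and in the respiratory chain 23 of 25 are within the margin, calls included.

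Markers of other liver cells varied between arrays. Their counts are read against the shares over all autosomal probe sets, 4.16% higher and 3.28% lower here and 6.47% lower in the opposite diagonal. Of the probe sets above background 86.4% were within the margin. Kupffer cell and macrophage markers had 3 of 14 higher, 0 lower by limma (1 at an unadjusted p under 0.05) and 1 within the margin, with a median of 0.47, whereas the opposite diagonal had 9 lower and a median of -0.88. Lyz2, the macrophage lysozyme, read 10.46, 9.97 and 9.62 against 8.64, 9.22 and 8.61 (1.19, SE 0.20, adjusted p = 0.00311), and the resident macrophage receptor gene Timd4 read 9.09, 8.40 and 8.00 against 7.07, 7.85 and 7.38 (1.06, adjusted p = 0.0295; 0.0107 to 0.118). Clec4f, the defining Kupffer cell lectin, read 9.65, 9.21 and 9.06 against 8.96, 9.32 and 8.97 and overlapped (0.22); it was named after its value was seen. C57BL/6J male 2 was the highest male for all of these, and the count of 3 was 1 to 7 with an array left out, moving by over 1.5 times without any 1 of the C57BL/6J males. The 1 within the margin was 0 to 4, changing without any 1 of the KK females. Itgam, a myeloid integrin gene at background in the males, was higher by 0.57 (adjusted p = 0.0197; 0.0111 to 0.0917).

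Of 14 sinusoidal endothelial markers 12 were within the margin and 1 was neither called nor within it. Lyve1, a hyaluronan receptor, was lower (-0.76, adjusted p = 0.00292, opposite -0.73). Clec4g, an endothelial lectin, was higher (0.42) and is among the 12 within the margin. Without KK female 2 the number higher was 2. Of 14 stellate cell and fibrosis markers 3 were higher and 6 within the margin. The pericyte gene Rgs5 read 8.90, 8.43 and 8.43 against 7.44, 7.60 and 7.45, with no overlap (1.09, SE 0.14, adjusted p = 0.000395; opposite 0.72). Ecm1 (0.98) and Colec11 (0.51) were higher, but without KK female 1, KK female 2, C57BL/6J male 1 or C57BL/6J male 3 the count was 1. The bicarbonate exchanger gene Slc4a2, a cholangiocyte marker, was higher by 0.36 and within the margin.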

How the data were processed

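Liver RNA was measured on 12 Affymetrix whole-transcript arrays, 3 for each strain and sex, and grouped by their titles. The deposited values are log2 expression, which the authors made with RMA and affy, per the submitters' processing notes; versions and scan batches are not given in the sources used here. RMA, as usually run, corrects background, equalises array distributions and summarises the probes of a set, so small differences of low values are compressed. The deposited arrays were not fully equal in distribution, with medians from 5.9 to 6.03 and interquartile ranges from 2.64 to 2.97. The precision is limited by the number of arrays, 3 per group. Of 21212 probe sets 18786 had 1 symbol in the platform table, 6 several and 2420 none; 18775 matched the RefSeq annotation of GRCm38.p6, which gave the chromosome.

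A mean per group was fitted over all 12 arrays by lmFit and eBayes of limma 3.58.1, run in R 4.3.3. Tests were two-sided, and adjusted p-values are limma's with Benjamini-Hochberg adjustment over all probe sets. The comparison, its members and the gene lists were chosen with earlier results of these data known, and lists are given as counts and medians with no test.

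Named genes, each with exactly 1 symbol and by its brightest probe set, were the 12 largest calls each way without overlap, and the 10 largest opposite differences each way among genes within the margin. To these came all measured sex-biased members, up to 4 called members of each other list by adjusted p, the sex label genes, and the 5 genes of each sign pattern called in both diagonals with the largest smaller difference. Any further gene was picked with its values in view. Opposite differences are KK males minus C57BL/6J females.

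For KK females minus C57BL/6J males on simulated data of 21212 probe sets, 80.6% of 67 changed 1.5-fold, 98.5% of 67 changed 2-fold and 100% of 66 changed 4-fold were called, with 9 false calls, and 97.3% of unchanged ones lay within the margin. The simulated noise was normal and independent, with the spread that limma fitted, and only probe sets well above background were changed. It held no outlying array and no unequal spread between groups, so these rates may overstate those in the measured data. Alternatives were quantile or loess normalization, a filter on low values, 1 probe set per gene, adjustment over autosomes, array weights, a robust prior with an intensity trend, the replicate block, the interquartile range as a covariate, only the groups compared, other margins and folds, and each array left out.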

Additional observations from a re-analysis of the deposited data

How the results depend on the processing

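No named gene changed sign with a call. Of 145 named genes 102 were called, 83 of these under every alternative and left-out array and 91 under every alternative that kept all arrays; 19 lost the call at least once, and 8 of the 43 uncalled gained it. The calls between KK females and C57BL/6J males numbered 835 to 1377 with an array left out (446 to 773 higher, 340 to 604 lower), those of the opposite diagonal 1268 to 1934, probe sets within the margin 11244 to 11925, calls with the same sign 414 to 493 and with opposite signs 59 to 119, and genes within the margin with a 2-fold opposite difference 33 to 45. With the interquartile range as a covariate the calls were 2221, with 1155 lower, and 151 had opposite signs; array weights gave 4085 in the opposite diagonal and 146 with opposite signs. Requiring 2-fold left 188 and 261 calls. Within the margin were 7695 when only probe sets above the median mean were kept and 6118 at a narrower margin; the 38 genes became 3 at that narrower margin and 105 at a 2-fold margin. The cause of these changes was not tested, other than the narrower or wider criteria themselves.

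Higher calls made up 55.9% as deposited, 54.2% after quantile and 57.5% after loess normalization, and 48% with the interquartile range as a covariate. In the opposite diagonal the share was 38.4%, 47.8%, 43.9% and 49.5%. With array weights the shares were 59.1% here and 49.6% in the opposite diagonal. Lower calls outnumbered higher ones in that diagonal, to an extent that varied with the processing. The cause of this was not tested.

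The labels do not say that a replicate number marks a shared litter, batch or day, so the samples were treated as unpaired. Correlations of deviations from the group means between same-numbered arrays ran from -0.36 to 0.48, and 15 of 18 were positive. Of 12 arrays 8 had their best match outside their group in an array of the same number. This may be a hint of pairing from the data, not from the design. Interquartile ranges also varied between the arrays. In the order KK females, C57BL/6J males, KK males and C57BL/6J females they were 2.97, 2.75, 2.74 and 2.84 for replicate 1. They were 2.76, 2.8, 2.64 and 2.74 for replicate 2, and 2.89, 2.91, 2.87 and 2.97 for replicate 3. The part of this spread in the correlations was not tested. Between KK females and C57BL/6J males the correlations were only -0.36, 0.08 and 0.11 for replicates 1, 2 and 3. With the replicate block the calls were 1724 (915 higher, 809 lower), the opposite diagonal gave 2450, 12100 were within the margin, 709 had the same sign, 135 opposite signs, and the 38 genes were 42.

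Genes at background in a group have no measured level there, and single probes were not used here.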
